A study of Oryza sativa Japonica Group with 27 samples.

Results

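The comparison described here is that of DMS-treated with untreated libraries made by the biotin variation of Structure-seq2 from rice shoots. Its members are the biotin variation +DMS and -DMS libraries, 2 replicates each, taken by their labels. Each of the 4 libraries was read with a custom and with a standard sequencing primer, so they account for 8 of the 27 samples and 4 of the 14 libraries of the series. Counts were summed over the transcripts of a locus, which gave 35679 loci from 42132 transcripts, of which 30563 loci had 1 transcript and 5116 had several.

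Structure-seq2 probes RNA folding by treating it with dimethyl sulfate (DMS), which adds methyl groups to adenines and cytosines whose pairing face is free. Reverse transcriptase stops at a methylated base, an adapter is ligated to the end of the cDNA, and a library without DMS shows where the enzyme stops by itself. In the biotin variation the cDNA carries biotin, a vitamin that the protein streptavidin binds tightly, so that it can be pulled out of solution instead of being cut from a gel.

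All groups came from shoots of 14-day japonica plants of the cultivar Nipponbare, as poly(A)-selected RNA, with no genotype or other agent in the labels. The biotin variation +DMS libraries had DMS treatment, added biotin, and streptavidin purification after reverse transcription and after ligation. The biotin variation -DMS libraries were made the same way without DMS. The standard protocol +DMS and -DMS libraries, 2 replicates each, had no biotin and gel purification (PAGE) at both steps. These 8 libraries shared denaturation at 90 °C with salt, reverse transcription at 55 °C, T4 DNA ligase, Q5 polymerase and a last purification on a gel. The remaining libraries, 5 in the custom-primer table, were single untreated libraries with 1 changed step, and they serve here to set levels outside the biotin variation. By their labels these 5 were biotin only, Ex Taq polymerase, agarose purification, denaturation below 90 °C and reverse transcription below 55 °C. The levels outside the biotin variation thus include a library labelled with biotin. A Circligase library was in the standard-primer table only. Whether the replicates are separate plants is not in the labels, and p-values here measure a spread between libraries that may be technical. The deposited tables give counts per transcript and no position of stops, and reactivity to DMS was not analysed here. The tables do not pair the locus IDs with gene names, and 1 of the 35679 IDs matched the reference table. Loci are therefore given by ID with no role, and neither the shoot label nor any gene group could be checked against marker genes.

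The 4 libraries differed widely in depth, and the -DMS replicate 1 stood apart. With the custom primer the +DMS libraries held 252652 and 150527 counts, and the -DMS libraries held 27118 and 139176 counts. With the standard primer the totals were 230303 and 155923 counts for +DMS, and 29777 and 135804 counts for -DMS. CPM is a count scaled to the size of its library, and the library totals were first rescaled by TMM factors. In the custom reading these factors were 0.802 and 0.845 for the +DMS libraries, and 1.71 and 1.02 for the -DMS libraries. A factor above 1 lowers the CPM of every locus in its library. After this scaling, 1 count in the custom reading was worth 4.93 and 7.86 CPM in the +DMS libraries. It was worth 21.5 and 7.03 CPM in the -DMS libraries. A locus without a count could therefore still be present at up to 14.8 and 23.6 CPM with DMS, and at up to 64.6 and 21.1 CPM without DMS, taking 3 counts as the limit of a zero. These limits cover counting error only, since reads were not marked by molecule before PCR.

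The -DMS replicate 1 held the fewest loci at equal depth, too. Thinned to 27118 counts, the custom readings held 6286 and 6577 loci with DMS, and 2754 and 5449 loci without DMS. The means were 6431 ± 206 loci with DMS and 4101 ± 1905 loci without DMS (SD, n = 2 each). The difference of 2330 loci had an exact two-sided permutation p of 0.333, the smallest that 2 against 2 libraries allow. At the same depth the 9 custom readings outside the biotin variation held 7564 to 7973 loci, above all 4 biotin variation libraries. In the standard-primer reading the thinned numbers were 6637 ± 466 loci with DMS and 5314 ± 1505 loci without DMS (exact two-sided permutation p = 0.667, SD, n = 2 each). There, 9 of the 10 libraries outside the biotin variation held 7036 to 7397 loci, above all 4 biotin variation libraries, and the single Circligase library held 6259. The -DMS replicate 2, with 6378 loci, was above the +DMS replicate 1, with 6308.

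A few abundant loci took a larger share of the counts in the -DMS replicate 1. In the custom reading the 10 most abundant loci of each library held 14.5% and 12.6% of counts with DMS, and 25.8% and 11.3% without DMS. Group means were 13.5% ± 1.31 with DMS and 18.6% ± 10.3 without DMS (SD, n = 2 each; exact two-sided permutation p = 1). The sign of this difference rested on 1 library: it was -5.02 percentage points with all 4 libraries and 2.24 percentage points without the -DMS replicate 1. The 9 custom readings outside the biotin variation had 8.65% to 10.2% of counts in their 10 most abundant loci, less than any of the 4. This order did not hold throughout: among loci listed with 1 transcript the 9 readings had 9.97% to 12.6%, beside 12.1% and 10.6% with DMS and 27.4% and 9.84% without DMS in the biotin variation. With the standard primer the Circligase library, at 14.2%, was above the +DMS replicate 2 (13.5%) and the -DMS replicate 2 (12.8%). In each library, 50% of the counts lay in 307 and 362 loci with DMS and in 123 and 382 loci without DMS, against 524 to 754 loci in those 9 readings.

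**Figure D1:**
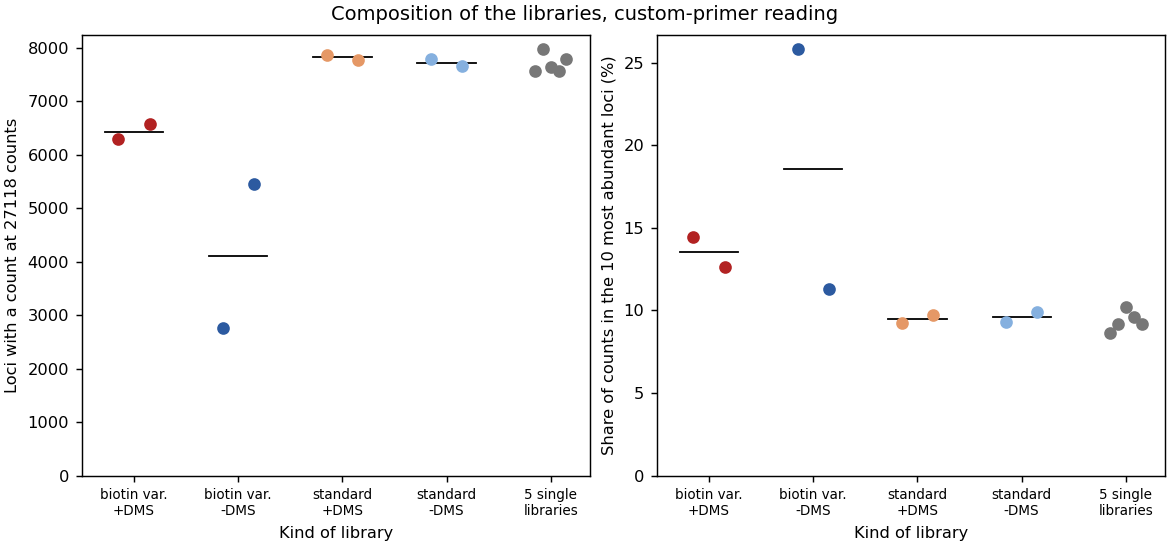
Number of loci with a count after thinning to 27118 counts (left axis, loci) and percent of counts in the 10 most abundant loci (right axis) for each library read with the custom primer; points are libraries and lines are means of the replicated kinds. The biotin variation -DMS replicate 1, with 2754 loci and 25.8% of counts in 10 loci, lies apart from the other biotin variation libraries, and all 4 of these hold fewer loci than the libraries outside the biotin variation.

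The replicates resembled each other less without DMS than with it. Over the 7777 loci tested in the custom reading (at least 10 counts in at least 2 libraries), Pearson's r of log2(CPM + 1) was 0.681 between the +DMS replicates and 0.384 between the -DMS replicates. The standard protocol pairs had r of 0.869 with DMS and 0.819 without DMS. These values are across loci, which are not independent, and low depth lowers them. The spread between replicates beyond counting, as a coefficient of variation from edgeR's common dispersion, was 27.6% for the +DMS pair and 122% for the -DMS pair of the biotin variation. It was 13.1% for the +DMS pair and 9.37% for the -DMS pair of the standard protocol. In the standard-primer reading the biotin variation pairs had 39.6% with DMS and 107% without DMS.

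In the biotin variation, Pearson's r was higher between the 2 readings of a library than between replicates, by a small margin for the +DMS replicate 2. Over the 5832 loci tested in both tables, r between the 2 readings of a library was 0.838 and 0.735 for the +DMS libraries, and 0.762 and 0.810 for the -DMS libraries. Over those loci the custom readings of the replicates had r of 0.724 with DMS and 0.401 without DMS. The standard protocol did not share this order: its custom readings had replicate r of 0.897 with DMS and 0.857 without DMS, above the r between primers of all 4 libraries (0.761 and 0.863 with DMS, 0.659 and 0.834 without DMS). By Spearman's rank correlation over the same loci, the +DMS replicate 2 of the biotin variation had 0.772 between its readings. This was below the 0.784 between the custom readings of the +DMS replicates. A library's own 2 readings share its cDNA and PCR, so they are not replicates, and a locus called in both is checked for the reading only.

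**Figure D2:**
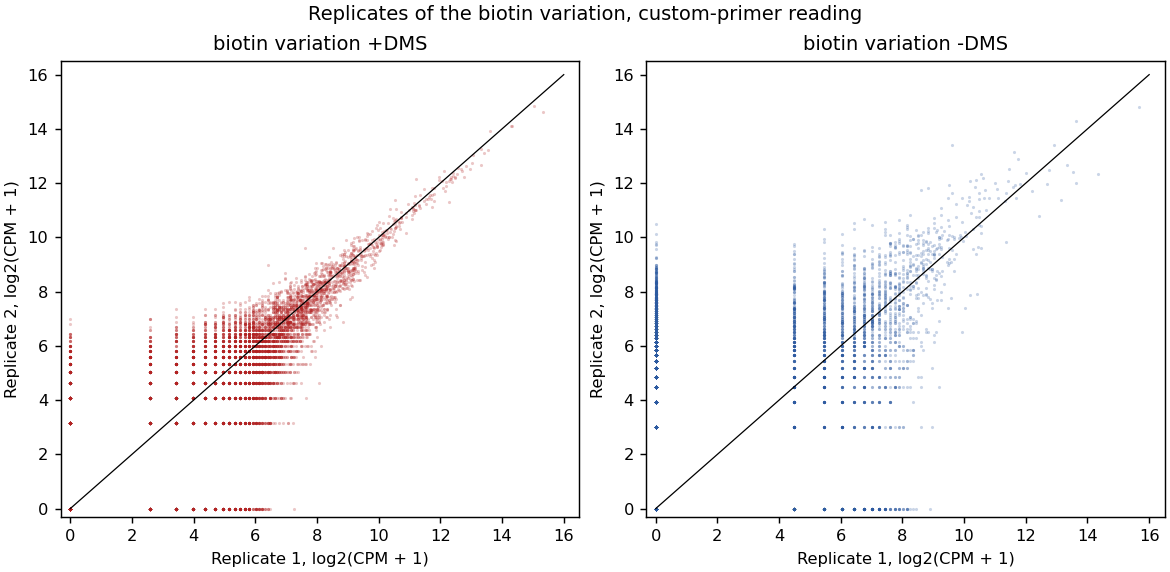
Replicate 2 against replicate 1 of the biotin variation in the custom reading, log2(CPM + 1), for +DMS (left) and -DMS (right); each point is 1 of 7777 tested loci and the line marks equal values. The +DMS points lie along the line (r = 0.681), while the -DMS points spread out (r = 0.384), with a column of loci at 0 in replicate 1.

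In each biotin variation library, loci at zero included some that other libraries counted often. A locus was predicted at 10 or more counts in a library when its mean share in the 9 custom readings outside the biotin variation, times the library's total, came to that number. Of such loci the +DMS libraries had 227 of 4553 (4.99%) and 61 of 2629 (2.32%) at zero. The -DMS libraries had 24 of 332 (7.23%) and 235 of 2408 (9.76%) at zero. So the -DMS replicate 2, which had nearly the depth of the +DMS replicate 2, had the larger share of zeros of that pair. Of the zeros, 133 and 24 in the +DMS libraries, and 17 and 151 in the -DMS libraries, were zero in the standard-primer reading too. The 9 custom readings outside the biotin variation, each predicted from the rest of them, had 0% to 0.187% at zero. With the standard primer the shares were 6.19% and 5.29% with DMS, and 10.4% and 8.44% without DMS. For loci predicted at 30 or more counts, the custom shares were 0.750% and 0.701% with DMS, and 0% (of 94 loci) and 2.35% without DMS.

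Split by their mean CPM in the 9 other libraries, loci below 30 CPM were at zero in 18.0% and 19.8% of cases in the +DMS libraries, and in 86.8% and 45.9% in the -DMS libraries. Among the 448 loci at 300 CPM or more, 0% and 0.446% were at zero in the +DMS libraries, and 11.8% and 2.46% in the -DMS libraries. In both -DMS libraries the share of zeros was above that of both +DMS libraries at every level. For most loci below 60 CPM, then, the -DMS replicate 1 could give no more than an upper limit.

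**Figure D3:**
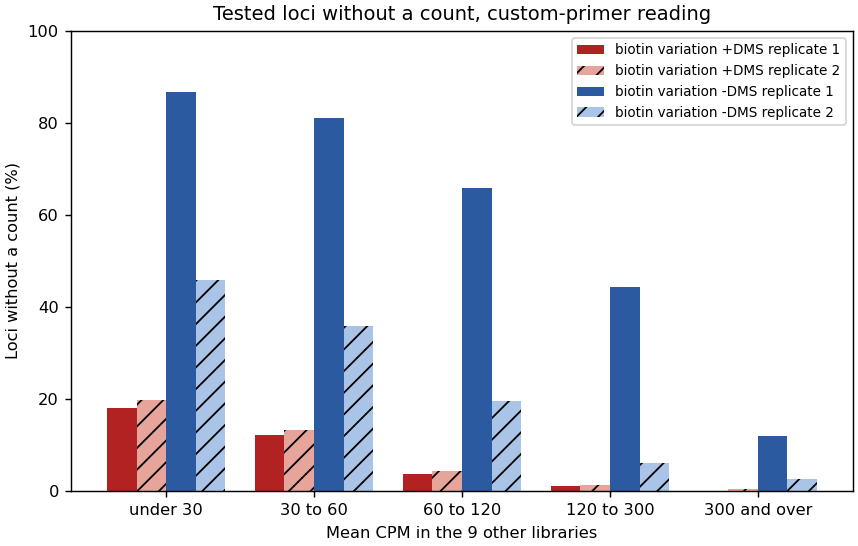
Percent of the 7777 tested loci without a count in each biotin variation library of the custom reading (vertical axis), by the locus's mean CPM in the 9 libraries outside the biotin variation (horizontal axis). The -DMS replicate 1 is at zero for 86.8% of loci under 30 CPM and 11.8% of loci at 300 CPM or more, and the +DMS replicate 1 for 18.0% and 0%.

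Against this background, 52 of 7777 loci (0.669% of those tested) changed with DMS in the custom reading, of which 44 rose (0.566%) and 8 fell (0.103%) at an edgeR adjusted p under 0.05. In the standard-primer reading 9 of 6628 loci changed (0.136%), of which 2 rose (0.0302%) and 7 fell (0.106%) with DMS. A single locus, OS01T0101200, passed in both tables with 1 sign, which is 0.0171% of the 5832 loci tested in both. With the counts of both readings added up for each library, edgeR called 0 of 11012 loci (0%) at an adjusted p under 0.05, the lowest being 0.0931, and 2685 had an unadjusted p under 0.05. No other tool was run on the added counts.

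These counts rested on the spread shared with all libraries of a table and on single libraries. With the 4 biotin variation libraries alone, edgeR called 0 of 2844 loci in the custom reading (233 at an unadjusted p under 0.05), while DESeq2 on all 13 libraries called 80. Leaving out the +DMS replicate 1 or 2 left 0 calls each, with 1366 and 1723 loci at an unadjusted p under 0.05. Leaving out the -DMS replicate 1 gave 1034 calls, 700 higher and 334 lower, which held all 52. Leaving out the -DMS replicate 2 also gave 1034 calls, 853 higher and 181 lower, which held 50 of the 52. In each of these fits the lone library is assumed to vary like the other groups, although the -DMS pair itself had a coefficient of variation of 122%. The main fit of the custom reading shared its spread over all kinds of library too. Its common dispersion was 0.105, beside 1.49 in the biotin variation -DMS pair and 0.00878 in the standard protocol -DMS pair. The p-values of the 52 calls may therefore understate the spread of the biotin variation -DMS pair.

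The median change of all tested loci was above 0, and both its size and its sign depended on the scaling, the loci included and single libraries. The median log2 change of all 7777 loci in the custom reading was 0.84 under TMM scaling, and 69.5% of loci were above 0. It was 0.58 when RLE size factors were used and 0.33 for library totals alone. Among the 377 loci with at least 10 counts in all 4 libraries, the median log2 change of their share of the raw counts was -0.33. In a fit of only the loci with a count in every biotin variation library, added after the data were seen, the median was -0.048 with the custom and -0.12 with the standard primer. Without a filter on low counts the custom median was 0. It was 0.44 and 0.68 without the +DMS replicate 1 and 2, and 0.68 and 5.14 without the -DMS replicate 1 and 2. The split of calls moved with the scaling too: 44 higher and 8 lower under TMM scaling, 47 and 31 when RLE size factors were used, and 50 and 78 for library totals alone. Because a count is a share of its library, a rise of some loci and a fall of the others cannot be told apart. The RNA came from shoots and not from single cells, so less of an RNA per cell and fewer cells that hold it cannot be told apart either.

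Most of the 44 loci that rose were those with little or nothing in the -DMS libraries. In the custom reading they had 9 to 4066 counts in a +DMS library (median 35) and 0 to 1087 counts in a -DMS library (median 0). In the -DMS group 18 of them had no count at all and 31 had at most 2. For those 18, levels with DMS were 7.44-fold to 21.7-fold above a limit of 3 counts over the -DMS group (15.9 CPM), with a median of 8.39-fold. These folds leave out the counting error of the +DMS counts. The fitted median log2 change of the 44 was 4.99, which depends on a prior count where a group is at zero. A call of a rise selects for low counts without DMS, and such zeros were common among all tested loci. At 60 to 120 CPM in the 9 other libraries, the -DMS replicates were at zero for 65.9% and 19.6% of loci. From 120 to 300 CPM they were at zero for 44.3% and 5.98%.

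The 44 were chosen by these same 4 libraries, so their place relative to other libraries is a description only. The +DMS replicates lay above the range of the 9 custom readings outside the biotin variation for 30 and 28 of the 44 loci. The -DMS replicates lay below that range for 37 and 35 of the 44. Of all 7777 loci, 24.9% and 22.6% were above the range in the +DMS replicates, and 73.5% and 45.3% were below it in the -DMS replicates, so for the -DMS replicate 1 the share among the 44 was near that of all loci. In the standard protocol the median log2 change of the 44 with DMS was 0.38, with 33 above 0 and none called there (edgeR adjusted p; 54 of 7777 loci, 0.694%, were called in that comparison).

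The 8 loci that fell had the mirror pattern in small numbers. Their +DMS libraries held 0 to 720 counts (median 6) and their -DMS libraries 4 to 970 counts (median 20), and 3 of them had no count with DMS. The -DMS replicates each lay above the range of the 9 other custom readings for 6 of the 8, and both did so for 5. Among all 7777 loci, 8.51% and 20.2% were above it in the -DMS replicates, and 2.93% in both. The +DMS replicates lay below that range for 3 and 4 of the 8, beside 30.7% and 30.4% of all loci. The 8 were chosen by these same libraries, so their place relative to other libraries is a description only. In the standard protocol the median log2 change of the 8 with DMS was -0.67, with 5 below 0 and 3 above. Of these 8, 2 were called lower there (edgeR adjusted p under 0.05). Among all 7777 loci, 50 were called lower and 4 higher in that comparison.

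The standard-primer reading gave the same sign for nearly all of these loci without passing the threshold. Of the 44, 43 were tested there, 43 had the same sign, 41 had an unadjusted p under 0.05 and 1 was called. Of the 8, 6 were tested, all 6 were lower with an unadjusted p under 0.05, and none was called (edgeR). Among all 5832 loci tested in both, 78.3% had the same sign, and 18.4% of the loci tested in the standard-primer table had an unadjusted p under 0.05. The 2 groups did not overlap for any of the 52 in the custom reading, beside 42% of all loci tested in both tables that lay wholly higher with DMS and 4.29% wholly lower. In both readings at once, 29% of loci lay wholly higher and 1.77% wholly lower.

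The 7 loci called lower with the standard primer had little or nothing in the custom readings of the biotin variation, at most 4 counts each over the 4 libraries. Of the 7, 1 was tested in the custom reading, on counts outside the biotin variation, with a log2 change of 0. All 7 were among the 350 loci, of 8897 tested, that were over 4 times higher in the standard-primer than in the custom-primer reading of the same libraries. Without those 350 loci the standard-primer table gave 4 calls, 2 higher and 2 lower.

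**Figure D4:**
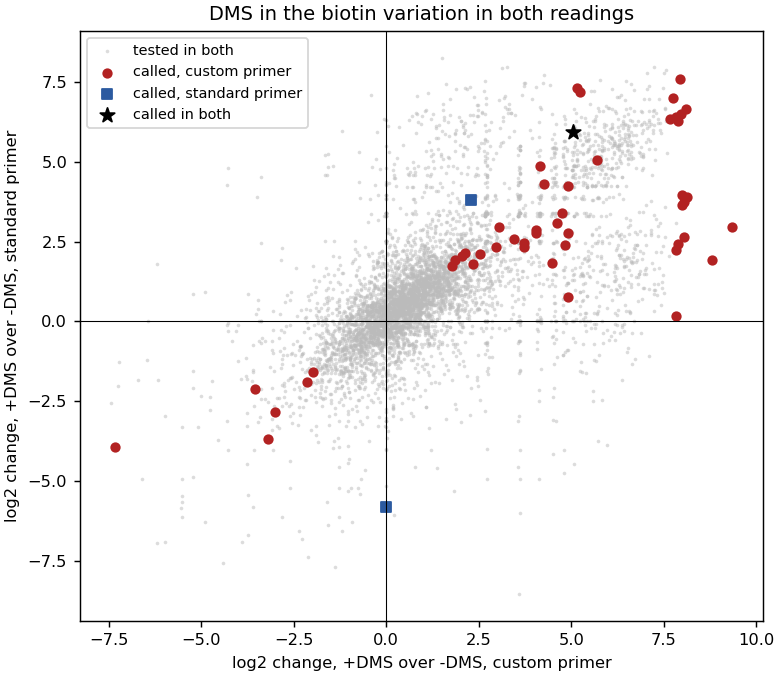
Log2 change of +DMS over -DMS in the standard-primer reading (vertical) against the custom reading (horizontal) for the loci tested in both, with loci called in either reading marked. Of the 44 loci called higher with the custom primer, 43 lie in the upper right, 1 of them, OS01T0101200, called in both, and the cloud of all loci is shifted towards higher values.

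OS01T0101200 was the locus called in both readings. With the custom primer it had 78 and 43 counts in the +DMS libraries, against 0 and 2 counts in the -DMS libraries. These counts are 384.9 and 337.9 CPM with DMS, and 0 and 14.1 CPM without DMS, so the groups did not overlap. The log2 change was 5.06 (SE 0.904, edgeR adjusted p = 0.0208), or 4.22 above the median of all loci. The ratio of the pooled, scaled counts was 34.6, with an exact 95% binomial counting interval of 9.38 to 289.1.

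With the standard primer OS01T0101200 had 87 and 36 counts in the +DMS libraries, against 0 and 1 counts in the -DMS libraries. The log2 change there was 5.94 (SE 1.08, edgeR adjusted p = 0.0401), and the pooled ratio was 70.2 with a counting interval of 12.4 to 2794. Both of its listed transcripts took part: with the custom primer OS01T0101200-01 had 41 and 19 counts with DMS against 0 and 0 without, and OS01T0101200-02 had 37 and 24 counts against 0 and 2. Such transcripts may share reads, and how the authors split shared reads is not given in the sources used here.

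Outside the biotin variation the same locus was counted with and without DMS. In the standard protocol it stood at 170.6 and 141.6 CPM with DMS and 172.6 and 222.2 CPM without DMS in the custom reading, a log2 change of -0.37 (edgeR adjusted p = 0.965). The 5 single untreated libraries had 115.4 to 359.6 CPM. So both biotin variation -DMS libraries lay below all 9 of these, and both +DMS libraries were near or above the top of their range. Without the -DMS replicate 1 the log2 change was 4.62 in the custom reading (edgeR adjusted p = 0.000186) and 5.52 in the standard-primer reading, where it missed the threshold (edgeR adjusted p = 0.0884).

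Among the 10 loci with the highest mean CPM over the 4 libraries, 2 were called in the custom reading and 8 were not. OS08T0502700 rose: it had 4066 and 2271 counts with DMS, against 158 and 1087 counts without DMS. In CPM it stood at 20064 and 17848 with DMS and at 3400 and 7639 without DMS (log2 change 1.77, SE 0.33, edgeR adjusted p = 0.0234). The groups did not overlap, and the change was 0.94 above the median of all loci. The standard-primer reading gave a log2 change of 1.72, which missed the threshold (edgeR adjusted p = 0.0762). Without the -DMS replicate 1 the change was 1.29 in the custom reading (edgeR adjusted p = 0.000377).

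In the standard protocol OS08T0502700 had a log2 change of 1.26 with DMS (edgeR adjusted p = 0.0769), and the difference between the protocols was 0.51 (SE 0.453, edgeR adjusted p = 0.561). Both values were above 0, and a difference in their size was not detectable in these libraries.

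OS12T0632000 fell, with a size set largely by 1 library. It had 720 and 392 counts with DMS, against 970 and 734 counts without DMS, which are 3553 and 3081 CPM with DMS and 20873 and 5158 CPM without DMS. The log2 change was -1.97 (SE 0.434, edgeR adjusted p = 0.0412). Without the -DMS replicate 1 it was -0.65 (edgeR adjusted p = 0.0401), and in the standard-primer reading it was -1.59 (edgeR adjusted p = 0.136). The 5 single libraries held 2227 to 4530 CPM. The -DMS replicate 1 lay far above that range, and the -DMS replicate 2, at 5158 CPM, lay above it too. The +DMS libraries lay inside it.

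The most abundant locus, OS12T0274700, showed no direction that held. It had 41376 and 25416 CPM with DMS and 51924 and 28800 CPM without DMS in the custom reading (log2 change -0.27, SE 0.267, edgeR adjusted p = 0.537). The values of the groups overlapped, and the change was 0.19 without the -DMS replicate 1 and -0.63, and called, without the -DMS replicate 2 (edgeR adjusted p = 0.0444). Its level in the biotin variation was above the 11698 to 19131 CPM of the standard protocol libraries in all 4 libraries.

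The next loci by abundance, OS07T0529600 and OS01T0639900, were near the threshold. OS07T0529600 had 33831 and 29691 CPM with DMS, against 12545 and 19797 CPM without DMS (log2 change 0.97, SE 0.262, edgeR adjusted p = 0.0611). OS01T0639900 had 20518 and 17510 CPM with DMS, against 7639 and 10879 CPM without DMS (log2 change 1.04, SE 0.257, edgeR adjusted p = 0.0530). In both the groups did not overlap, but the change was only 0.14 and 0.20 above the median of all loci. Both were called higher when either -DMS replicate was left out.

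OS09T0541000 was split by the -DMS replicates: it had 12598 and 15388 CPM with DMS and 775 and 10788 CPM without DMS (log2 change 1.26, SE 0.583, edgeR adjusted p = 0.187). Its 36 and 1535 counts in the -DMS replicates differed far more than their depths did. The change was 0.36 without the -DMS replicate 1 (edgeR adjusted p = 0.255), and 4.17 and called without the -DMS replicate 2 (edgeR adjusted p = 2.22e-09). The other uncalled loci, OS02T0115700, OS01T0102900, OS12T0291100 and OS12T0291400, had log2 changes of 0.80, 0.67, -0.32 and -0.52, with edgeR adjusted p-values of 0.178 to 0.589.

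OS01T0589000, chosen after its values were seen, was the locus with the largest fitted decrease among the 8 that fell in the custom reading. It had 0 and 0 counts with DMS, against 4 and 17 counts without DMS, which are 86.1 and 119.5 CPM without DMS. It was at least 12.2-fold lower with DMS, taking 3 counts over the +DMS group as the limit (edgeR adjusted p = 0.0412). In the standard-primer reading it had 1 and 2 counts with DMS and 7 and 5 counts without DMS, too few to be tested. The pooled ratio there was 0.143, with a counting interval of 0.0258 to 0.529. The custom calls of OS01T0101200, OS08T0502700, OS12T0632000 and OS01T0589000 were all lost when either +DMS replicate was left out (edgeR adjusted p of 0.115 to 0.167).

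**Figure D5:**
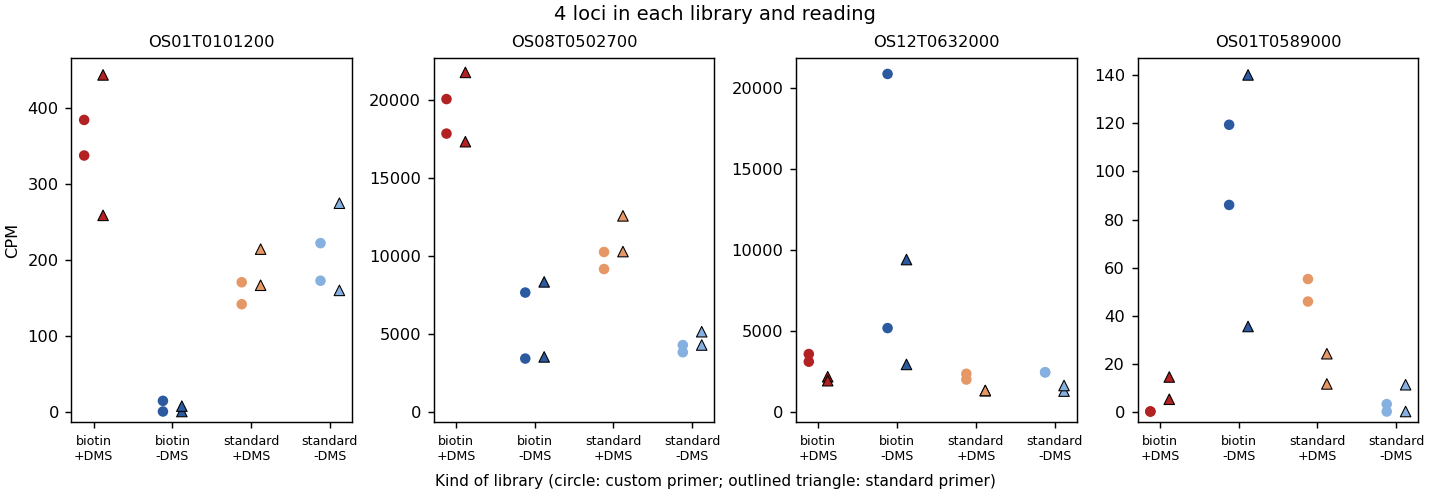
CPM of 4 loci in each library, by kind of library (horizontal axis), read with the custom primer (circles) and the standard primer (triangles). OS01T0101200 and OS08T0502700 are higher with DMS in the biotin variation in every reading, OS12T0632000 is lower with 1 -DMS library at 20873 CPM, and OS01T0589000 has no count in either +DMS library read with the custom primer.

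Whether the DMS effect differed between the protocols was tested as the effect in the biotin variation minus that in the standard protocol. In the custom reading 17 of 7777 loci differed (0.219%), 15 with a higher and 2 with a lower effect in the biotin variation (edgeR adjusted p under 0.05). The median of the difference over all loci was 0.96 on the log2 scale. Of the 15, 4 were called higher with DMS in the biotin variation and 9 others were called lower with DMS in the standard protocol. Among all 7777 loci, 44 were called higher in the biotin variation, and 50 lower and 4 higher in the standard protocol. The median log2 changes of the 15 were 2.32 for the biotin variation and -2.23 for the standard protocol. The 15 were selected by the difference of these same effects, so both values are a description only. In the standard-primer reading 4 of 6628 loci differed (0.0604%), and 4 loci were called in both readings. With the counts of both readings added up, edgeR called 0 of 11012 loci, with a lowest adjusted p of 0.0744 and 1834 loci at an unadjusted p under 0.05.

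OS03T0592500, also chosen after its values were seen, was one of those 4. In the biotin variation it had 335 and 160 counts with DMS, against 11 and 164 counts without DMS, a log2 change of 0.99 that was not called (edgeR adjusted p = 0.170). It was 0.33 without the -DMS replicate 1 (edgeR adjusted p = 0.388), and 2.63 and called without the -DMS replicate 2 (edgeR adjusted p = 0.000115). In the standard protocol it stood at 1425 and 824.8 CPM with DMS and at 12865 and 14085 CPM without DMS, a log2 change of -3.59 (edgeR adjusted p = 0.000212). The difference of the 2 effects was 4.58 (SE 0.620, edgeR adjusted p = 0.00121), and 4.81 with the standard primer (edgeR adjusted p = 0.0175). All 4 biotin variation libraries, at 1653 and 1257 CPM with DMS and 237 and 1153 CPM without DMS, lay below the 7569 to 13494 CPM of the 5 single untreated libraries.

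For OS01T0101200 the difference of the effects was 5.42 in the custom reading (SE 1.09, edgeR adjusted p = 0.0340) and 6.10 in the standard-primer reading, which missed the threshold (edgeR adjusted p = 0.122). For OS01T0589000 it was -11.79 (SE 1.97, edgeR adjusted p = 0.00965) as fitted, a size that depends on the prior count. That locus had 55.2 and 45.8 CPM with DMS and 0 and 3.09 CPM without DMS in the standard protocol, the opposite order to the biotin variation.

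The 17 differences depended on every one of the 8 replicated libraries. Leaving out the biotin variation +DMS replicate 1 or 2 gave 0 calls each (edgeR, 1042 and 1331 loci at an unadjusted p under 0.05), and leaving out the -DMS replicate 1 or 2 gave 457 and 857. Leaving out the standard protocol +DMS replicate 1 or 2 gave 7 and 4 calls, and the -DMS replicate 1 or 2 gave 3 and 5.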

How the data were processed

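The series holds Structure-seq2 libraries from rice shoots. The authors deposited raw counts per transcript in 2 tables, 1 for the custom and 1 for the standard sequencing primer, with 1 column per library. The tools listed in the submitters' processing notes are cutadapt and Bowtie2, with no version or role. The sources used here do not give the build, the annotation, how reads were counted or what was done with reads shared by transcripts. No column was left over: 0 belonged to samples that the labels do not list.

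Counts were summed per locus, the ID before the dash. Loci with at least 10 counts in at least 2 libraries of a table were tested with the quasi-likelihood test of edgeR 4.0.16, TMM factors and p-values adjusted by Benjamini-Hochberg over all loci tested (threshold 0.05), in R 4.3.3 with limma 3.58.1. Each fit held all libraries of a table, 13 with the custom and 14 with the standard primer, with a mean per kind, which left 4 residual degrees of freedom. A pool of all kinds was used because the 4 libraries alone leave 2. Standard errors are the log2 change over the square root of the F statistic. CPM values are scaled by TMM factors. Library composition was thinned by formula and compared with exact permutation tests.

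Custom readings held 27118 to 252652 counts in the biotin variation, so single loci are precise only when abundant. Loci were named if called in both readings in 1 direction, with at least 20 counts on average in the higher group and no overlap of the groups, or if among the 10 most abundant. With no names in the files, at most 2 called IDs are given in each direction. The comparison, the loci and the tests were chosen with earlier results of these data known. The scripts were tested on simulated counts with 1 spread for all libraries of a table, so the wider spread of the -DMS pair was not covered. There, 44% of 4-fold rises and 12% of 4-fold falls were recovered in the custom setting. In the standard-primer setting these were 6% and 12%. Alternatives were RLE and TMMwsp factors, totals without scaling, another filter (none, or 50 counts), DESeq2 1.42.0, smaller sets of libraries, a replicate block, 1 transcript per locus, both readings added up and leaving out each library. Added after the data were seen were factors from loci counted in all 4 libraries, and a fit of only the loci with a count in every biotin variation library. Gene lists by function and tissue markers were not run, because the IDs could not be matched to names.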

Additional observations from a re-analysis of the deposited data

Results flagged for a closer look

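In the custom reading 17 loci had a DMS effect in the biotin variation that differed from that in the standard protocol by the test of the difference itself (edgeR adjusted p under 0.05). Among the loci named in the text, 3 were of this kind. The difference of OS01T0101200 was 5.42 on the log2 scale. That of OS01T0589000 was -11.79, fitted on a +DMS group of the biotin variation with no count. That of OS03T0592500 was 4.58 with the custom primer and 4.81 with the standard primer, the larger part of it from a fall with DMS in the standard protocol. The part that the -DMS spread of the biotin variation has in these differences was not tested.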

How the results depend on the processing

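With other choices the custom reading gave 128 calls with library totals alone, 81 without a filter, 31 at a minimum of 50 counts, 80 with DESeq2, 0 with the 4 libraries alone, 160 with 1 transcript per locus, 163 for loci listed with 1 transcript, and 0 with both readings added up. RLE size factors, TMMwsp factors and the 8 replicated libraries gave 78, 47 and 45, within 1.5 times of 52. The standard-primer reading, with 9 calls, gave 29 with RLE size factors, 39 with totals alone, 92 without a filter, 0 at 50 counts (283 at an unadjusted p under 0.05), 131 with DESeq2, 21 with the 4 libraries alone, 39 with 1 transcript per locus and 4 without loci higher with that primer. For both readings, with 1 call, the numbers were 6 with RLE, 8 with totals, 12 without a filter, 0 at 50 counts, 29 with DESeq2, 0 with the 4 libraries alone, 2 with the 8 replicated libraries, 7 with 1 transcript per locus and 0 for loci listed with 1 transcript. The differences between protocols, 17, became 28 with totals, 11 for loci listed with 1 transcript and 4 in the standard-primer reading.

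Of the alternatives added after the data were seen, factors from loci with 10 counts in all 4 libraries gave 84 custom, 30 standard-primer and 6 shared calls. Loci with a count in every biotin variation library gave 27, 5 and 2 calls, and 8 differences. Leaving out 1 library gave 0 to 1034 custom calls, 0 to 592 standard-primer calls, 0 to 405 shared calls and 0 to 857 differences. Same-numbered replicates did not deviate together in the biotin variation (r = -0.0122 with the custom and -0.040 with the standard primer). In the standard protocol r was 0.077 and 0.14, and no label gives the numbers a shared source, so the numbers were not taken as pairs; a replicate block gave 94 custom, 15 standard-primer and 2 shared calls, and 22 differences.

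The difference in loci detected was 909 when thinned to 10000 counts and 983 to 3677 leaving out 1 library, and that in the share of the 10 most abundant loci was -12.3 to 2.24 percentage points. OS01T0101200 was called in 12 of 16 alternatives in the custom reading (highest edgeR adjusted p 0.220) and in 11 of 16 in the standard-primer reading (0.324). OS08T0502700 was called in 13 of 17 custom alternatives (0.327), OS12T0632000 in 12 of 18 (0.167) and OS01T0589000 in 11 of 14 (0.167).

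Signs turned for 4 loci that were not called. In the custom reading OS01T0102900 was at -0.081 with totals alone. Leaving out 1 library gave -0.89 to 0.19 for OS12T0274700 and -0.78 to 0.34 for OS12T0291100 there, and in the standard-primer reading -0.54 to 0.28 for OS12T0274700, -0.38 to 0.43 for OS12T0291100 and -0.40 to 0.073 for OS12T0291400. Values above 0 came without the -DMS replicate 1 in each of these, and without the +DMS replicate 2 in 4 of them (0.040 for OS12T0274700 in the custom reading, and 0.18, 0.063 and 0.030 with the standard primer). Without a filter the standard-primer reading gave 0.18 for OS12T0274700, 0.24 for OS12T0291100 and 0.13 for OS12T0291400, and the block gave 0.020 for OS12T0291100. The cause of these changes was not tested. Depth limits what the -DMS replicate 1 shows: a locus without a count there may stand at up to 64.6 CPM.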
